A study of Mus musculus with 28 samples.

Results

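Il17a, Il17f and Il17ra encode a pair of inflammatory cytokines and the receptor chain that both of them use. They were followed in polymer implants taken from tumor-bearing and healthy mice. All assays with these symbols were taken from a RT-qPCR inflammation panel, 1 assay for each gene, so that 3 of the 584 genes measured by 648 assays are described. The assays amplify 80 bases of Il17a, 85 bases of Il17f and 97 bases of Il17ra. The members were picked by gene symbol, by a rule that uses none of their measured values, but with earlier results of these data known.

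Each sample was the tissue that had grown into a microporous polycaprolactone (PCL) scaffold, called a synthetic niche, in a female BALB/c mouse. The 14 tumor-bearing mice had been inoculated with 4T1-luc2-tdTomato cells, a mouse mammary carcinoma line that carries luciferase and a red fluorescent protein, and the 14 healthy mice carried the same implant and were tumor-free by title, condition and protocol. The cell line is also listed in the labels of the healthy samples, so its listing was not used to group them. Implants were taken 7 days (3 tumor-bearing and 3 healthy), 14 days (8 and 8) and 21 days (3 and 3) after inoculation. No age is stated for the mice. A single tumor line in a single strain was used, and the tissue was described by the submitters as immune, stromal and epithelial infiltrate. Whole implants were homogenized, so fewer cells of a type and less RNA per cell cannot be told apart.

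IL-17A and IL-17F are closely related cytokines, released as homodimers or as a heterodimer, mainly by Th17 cells, gamma delta T cells and other innate lymphocytes. IL-23 together with IL-1 beta and IL-6 drives their production. The receptor for both is built from IL-17RA, a chain shared by most of the family and present on many cell types, and IL-17RC. Signaling through the adaptor Act1 raises neutrophil-attracting chemokines, colony-stimulating factors and antimicrobial proteins, and in mouse mammary tumor models IL-17 from gamma delta T cells has been tied to neutrophil expansion. In the mouse genome Il17a and Il17f are neighbours on one chromosome, with no other gene annotated wholly between them in RefSeq (GRCm38.p6).

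Levels are given as log2 relative quantity, which is the mean quantification cycle (Cq) of 5 reference genes in a sample minus the Cq of the assay. Each unit is a factor of 2 in template, and a lower Cq means more template. Assays differ in amplification efficiency, so no gene's level was set against another's. The summed marker levels given below add assays without a correction for this. Of 18144 reactions, 2244 (12.4%) gave no Cq, and a sample had a value for 475 to 587 assays. The reference genes averaged 18.09 to 19.26 cycles per sample. Loss of reactions was concentrated in scarce templates: 73.7% of reactions were without a Cq among assays with a median of 30 cycles or more, against 2.40% below 20 cycles. It also touched abundant genes, since Itgam, an integrin chain of myeloid cells, lacked a Cq in some samples and was measured in 26 of 28. The 28 samples were spread over 7 panels, which are called A to G in order of appearance. Both conditions were present on 5 of them. Panel G carried only day 14 tumor-bearing implants, 4 in number, and panel D only day 14 healthy implants, also 4.

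Il17a, the founding member of the family, gave no Cq in any implant. It was found in 0 of 14 implants from tumor-bearing mice and 0 of 14 from healthy mice. A count of 0 in 28 samples allows a share of implants with a Cq of up to 10.7%, and this limit covers counting error only. Nothing can be said of a difference between conditions, and the fold change for Il17a in the authors' deposited table is blank at each day. It was 1 of 9 assays on the panel that gave no Cq anywhere, a set that also held Il9, another T cell cytokine, and Il28b, an interferon lambda. T cell transcripts themselves were measurable in the same implants: Cd4, the co-receptor of helper T cells, had a Cq in 27 of 28 samples, and Foxp3, the regulator of regulatory T cells, in 27 of 28. Missing Cq values are written as undetermined for the 8 samples of panels A and B and as not available for the 20 samples of the other panels, and both were treated as no Cq. Whether an entry written as not available was a reaction without amplification or one that failed or was filtered is not stated, so the counts of implants with a Cq may miss template in those 20 samples.

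Il17f, the closest relative of Il17a, was found in 13 of 28 implants. In tumor-bearing mice it had a Cq in 0 of 3 implants at day 7, 3 of 8 at day 14 and 3 of 3 at day 21. In healthy mice it had a Cq in 1 of 3 implants at day 7, 5 of 8 at day 14 and 1 of 3 at day 21. Day 21 was the only day at which all implants of a group had a value, and these were the tumor-bearing ones. No difference in the share of implants with a Cq passed a two-sided Fisher's exact test in these 4 comparisons: p was 1 at day 7, 0.619 at day 14, 0.4 at day 21 and 1 over all days (6 of 14 tumor-bearing against 7 of 14 healthy), with an adjusted p of 1 for each. With 3 implants against 3 the smallest p this test can give is 0.1. The exact 95% intervals of the shares are wide: 8.52% to 75.5% for 3 of 8 tumor-bearing implants and 24.5% to 91.5% for 5 of 8 healthy implants at day 14. Among assays missing in some but not all samples, 1 of 327 (0.306%) over all days and 3 of 276 (1.09%) at day 14 reached an unadjusted p under 0.05 in the same test.

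Where Il17f was measured it came late. Its Cq lay between 29.23 and 31.08 cycles, a range in which few reactions of the panel give a value: 5.46% of all Cq values were above its lowest Cq and 1.06% were above 31 cycles. On the log2 scale the tumor-bearing implants had -12.84, -12.41 and -11.43 at day 14 and -12.06, -11.33 and -10.83 at day 21. The healthy implants had -12.28 at day 7, -12.45, -12.38, -11.94, -10.48 and -10.43 at day 14, and -12.91 at day 21. At day 14 the 2 highest healthy values lay above every tumor-bearing value, and the other 3 lay within the tumor-bearing range. Both of these highest values came from panel D, which held healthy implants only, so panel and condition cannot be told apart for them. At day 21 all 3 tumor-bearing values lay above the lone healthy one.

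**Figure D1:**
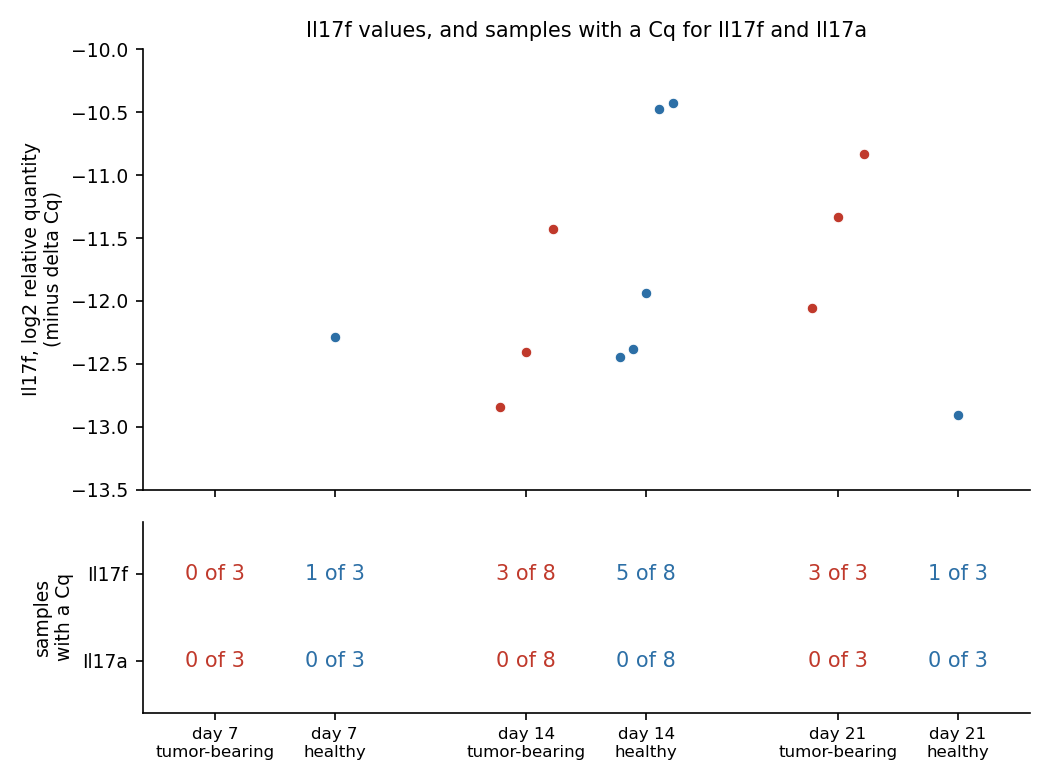
Log2 relative quantity of Il17f in each implant with a Cq (upper part, 1 point per implant), and the number of implants with a Cq for Il17f and Il17a out of those measured (lower part), by day, with tumor-bearing left of healthy. Il17f was found in 3 of 3 tumor-bearing and 1 of 3 healthy implants at day 21, and Il17a in none of the 28.

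At day 14 Il17f averaged -12.23 ± 0.72 in tumor-bearing implants (SD, n = 3) and -11.53 ± 1.01 in healthy implants (SD, n = 5). The fitted difference was -0.65 ± 0.56 on the log2 scale (SE), a fold of 0.638 with a 95% interval of 0.269 to 1.51, and it did not pass the test (limma, adjusted p = 0.701 over 588 assays). This fit leaves out the implants without a Cq. With panel as a fixed block the difference was -0.21 ± 0.23 (SE; limma, adjusted p = 0.787), which is also the mean of the 2 day 14 pairs on a shared panel that had both values, -0.39 and -0.03. It was -0.36 without panels D and G, -0.40 without healthy replicate 8 and -0.34 without tumor-bearing replicate 19. The authors' deposited table gives a fold of 0.619 at day 14 and 2.83 at day 21, the second resting on 1 healthy value. No fit was made at days 7 and 21, where a group had fewer than 2 values. In tumor-bearing implants the day 21 mean of -11.41 ± 0.62 (SD, n = 3) stood 0.81 ± 0.62 (SE) above the day 14 mean, which also missed the threshold (limma, adjusted p = 0.667). That value moved with the setting: it was 1.17 with panel as a fixed block (limma, unadjusted p = 0.0251, adjusted p = 0.493), 1.21 on the shared panels alone, and 1.26 with missing reactions at the lowest value of the assay. It was 0.52 without day 14 replicate 19 and 0.53 without day 21 replicate 26.

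When a missing Il17f reaction was set to the lowest value of the assay, so that absence counts as a low level, the difference at day 21 was 1.5 ± 0.55 (SE; limma, unadjusted p = 0.0116, adjusted p = 0.308). The same fit put the day 21 difference 2.07 above the day 14 difference, with an unadjusted p of 0.00426 and an adjusted p of 0.454. Neither passed after adjustment over all assays. Every such value depends on the floor chosen. That floor, -12.91, was itself the lone healthy value measured at day 21, so all healthy implants of that day held the same number. The SE and p of these fits therefore hold no spread between those implants.

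Detection of Il17f was spread over the panels. Each panel held 4 samples, and Il17f had a Cq in 2 on panel A, 1 on B, 2 on C, 2 on D, 2 on E, 3 on F and 1 on G. Implants with an Il17f Cq had a median reference Cq of 18.48 and values for a median of 579 assays, against 18.56 and 572 for implants without one. The part of input in detection was not tested. Il17c, an epithelial family member, was found in 10 implants, 5 of which also had Il17f. These 5 are 38.5% of the Il17f implants and 50% of the Il17c implants, and 10 implants had neither. Over all 28 implants Il17f had a Cq in 13 and Il17c in 10. Whether their detection went together was not tested.

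Il17ra, the signaling receptor chain, was measured in all 28 implants. Its Cq ran from 19.74 to 20.99 cycles. It averaged -1.65 ± 0.14 in tumor-bearing implants and -1.75 ± 0.19 in healthy implants over all days (SD, n = 14 each). Over all samples the relative quantity on the linear scale was 0.310 ± 0.036 (SD, n = 28), from 0.241 to 0.363.

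At day 7 Il17ra had -1.82, -1.73 and -1.73 in tumor-bearing implants, against -1.90, -1.69 and -1.46 in healthy implants. The tumor-bearing values lay inside the healthy range. At day 21 it had -1.94, -1.60 and -1.52 in tumor-bearing implants, against -1.73, -1.72 and -1.55 in healthy implants, and the groups overlapped again.

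At day 14 the tumor-bearing implants spanned -1.81 to -1.46 with a median of -1.58, and the healthy implants spanned -2.05 to -1.55 with a median of -1.80. The upper 4 of the 8 tumor-bearing implants were above every healthy one, and the lower 4 of the 8 healthy implants were below every tumor-bearing one. Of the tumor-bearing implants, 7 were above the healthy median. The group means were -1.60 ± 0.12 in tumor-bearing and -1.80 ± 0.20 in healthy implants (SD, n = 8 each).

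**Figure D2:**
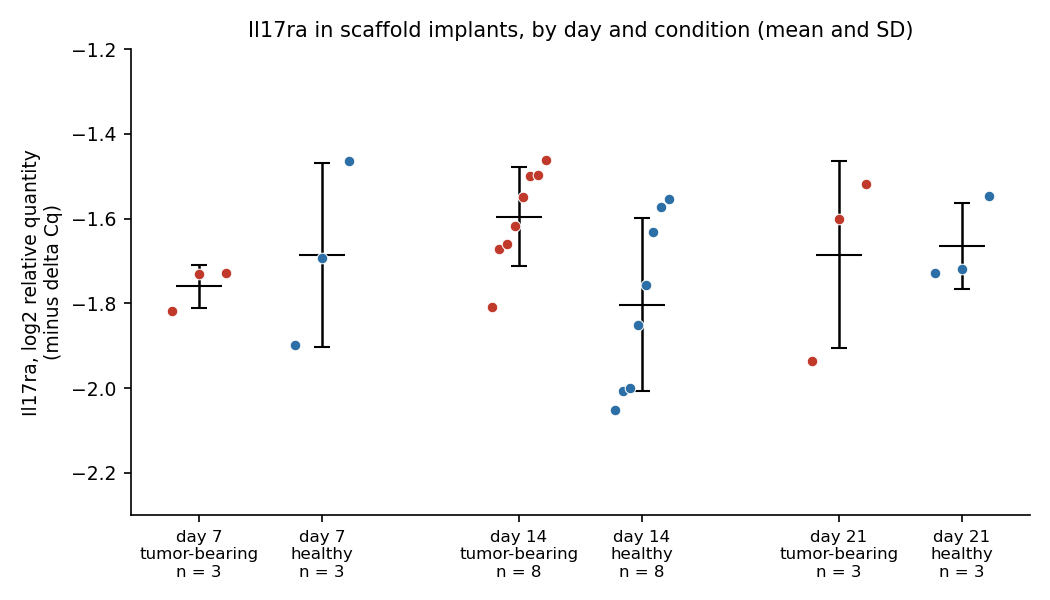
Log2 relative quantity of Il17ra in every implant, by day, with tumor-bearing left of healthy. Points are implants, long bars are means and whiskers are SD; the groups overlap at each day, and at day 14 the means are -1.60 in tumor-bearing and -1.80 in healthy implants.

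The fitted difference at day 14 was 0.21 ± 0.10 on the log2 scale (SE), a fold of 1.16 with a 95% interval of 1.01 to 1.33. Its unadjusted p was 0.0401, and after adjustment over the 588 assays tested it did not pass (limma, adjusted p = 0.421). It ranked 55 among these assays by p, where 62 (10.5%) had an unadjusted p under 0.05 and 14 (2.38%) passed after adjustment. A two-sided exact permutation test on the 16 implants gave p = 0.0283, and 0.0849 after adjustment over the 3 days. The value does depend on scaling. The median difference over all assays at day 14 was -0.08 under the deposited normalization, and with each sample centred on the median of its own raw Cq values the Il17ra difference was 0.33, with an adjusted p of 0.0361. Relative to the median assay the difference was 0.30 under either scaling. A change of scaling shifts every assay of a sample alike, so this match is built in.

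At day 7 the difference was -0.07 ± 0.15 (SE), a fold of 0.950 with an interval of 0.764 to 1.18 (limma, adjusted p = 0.997). At day 21 it was -0.02 ± 0.15 (SE), a fold of 0.986 with an interval of 0.793 to 1.23 (limma, adjusted p = 0.995). The exact permutation test gave p = 0.700 and 0.900 at these days, where 0.1 is the smallest value possible. Averaged over the 3 days the fold was 1.03 with an interval of 0.918 to 1.15 (limma, adjusted p = 0.911). Among all assays, 0 of 565 (0%) passed at day 7, where 13 (2.3%) had an unadjusted p under 0.05, 7 of 573 (1.22%) passed at day 21 and 14 of 559 (2.50%) passed for the mean of days. The folds for Il17ra in the authors' deposited table were 0.950, 1.16 and 0.986 at days 7, 14 and 21.

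Whether the difference at day 14 itself departed from the others was tested as an interaction. It was 0.29 ± 0.18 (SE) above that at day 7 and the day 21 difference was -0.23 ± 0.18 (SE) relative to that at day 14 (limma, adjusted p = 0.992 and 0.879), so a course over time was not shown. The day 21 difference stood 0.05 ± 0.22 (SE) above that at day 7 (limma, adjusted p = 1). None of the assays passed in these 3 tests (0%), and 21, 32 and 22 had an unadjusted p under 0.05.

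Within tumor-bearing implants the Il17ra level at day 14 was 0.16 above day 7, that at day 21 was -0.08 relative to day 14, and that at day 21 was 0.08 above day 7. Within healthy implants the 3 differences were -0.12, 0.15 and 0.03 in the same order. None of these 6 passed (limma, adjusted p between 0.589 and 0.993). Among all assays 0.175%, 0% and 0.529% passed in tumor-bearing implants and 0%, 0.346% and 0% in healthy implants.

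In order of level the groups ran from day 14 tumor-bearing (-1.60) through day 21 healthy (-1.66), day 7 healthy (-1.68), day 21 tumor-bearing (-1.69) and day 7 tumor-bearing (-1.76) to day 14 healthy (-1.80). Each group differed from its neighbour in this order by less than the larger of their SDs, which ran from 0.05 to 0.22.

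On the 5 panels that held both conditions, a tumor-bearing and a healthy implant of the same day could be set side by side. At day 14 Il17ra was higher in the tumor-bearing implant in 4 of 4 such pairs, by 0.34 on panel A, 0.13 on B, 0.34 on E and 0.23 on F, a mean of 0.26 ± 0.10 (SD). At day 7 it was higher in 1 of 3 pairs and at day 21 in 2 of 3. Over all days it was higher in 7 of 10 pairs. The 4 tumor-bearing implants of panel G averaged -1.58 ± 0.16 and the 4 healthy implants of panel D averaged -1.73 ± 0.23 (SD), a difference of 0.16 in which panel and condition cannot be told apart. With panel as a fixed block the day 14 difference was 0.26 ± 0.14 (SE; limma, unadjusted p = 0.0731, adjusted p = 0.414), so that its unadjusted p was no longer under 0.05. The permutation test above did not take panel into account.

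**Figure D3:**
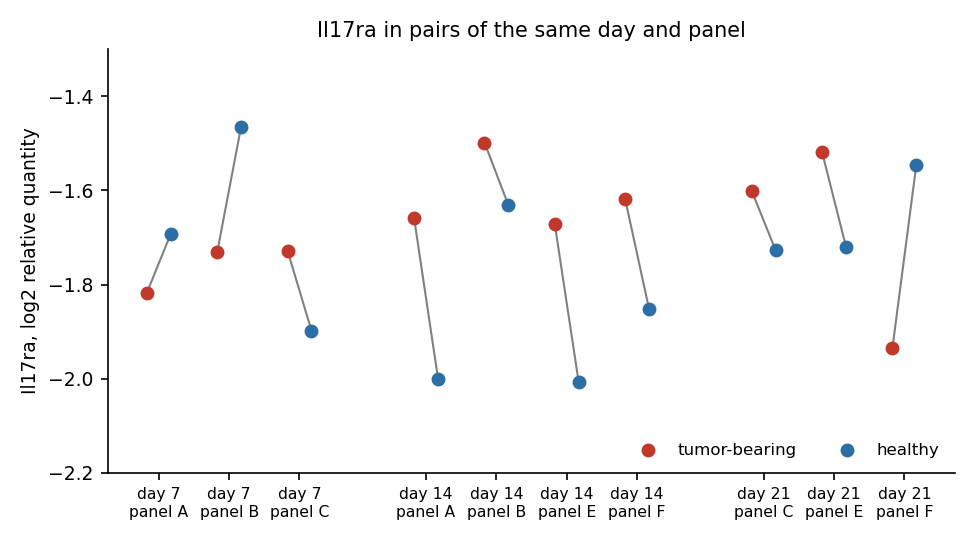
Log2 relative quantity of Il17ra in the 10 pairs of a tumor-bearing (left point) and a healthy implant (right point) run on the same panel and taken on the same day. The tumor-bearing point is the higher one in 1 of 3 pairs at day 7, 4 of 4 at day 14 and 2 of 3 at day 21.

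Il17ra varied little. Its SD over the 28 implants was 0.17, and of the 306 other assays with a value in all samples and outside the 5 reference genes only 11 (3.59%) had a smaller one. Their median SD was 0.43. Within groups its SD was 0.17, and 13 (4.25%) of those assays had a smaller one. Among the 62 assays within 1 cycle of its mean Cq, 4 (6.45%) were less variable. The spread of the reference genes is held down by their being part of the mean that normalizes them.

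**Figure D4:**
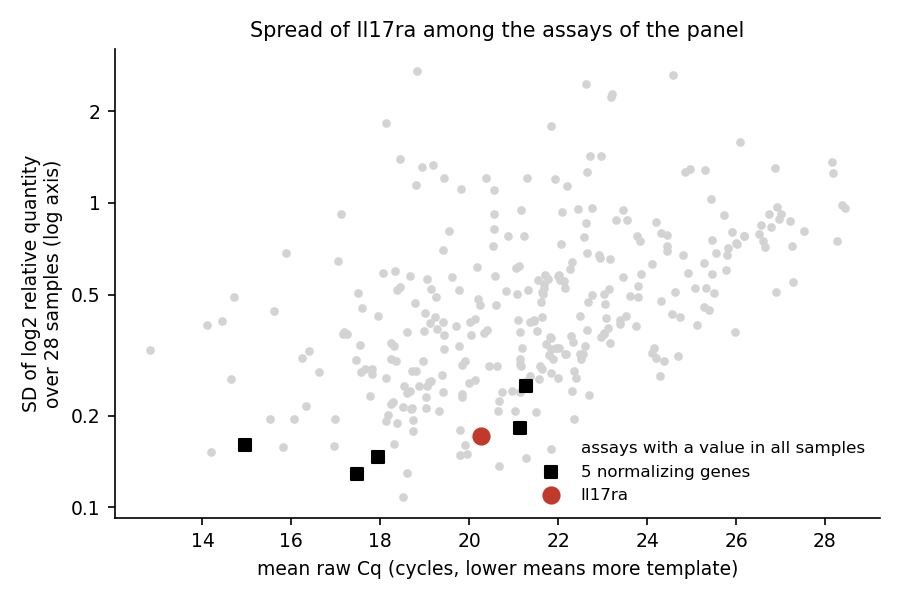
SD of log2 relative quantity over the 28 implants (log axis) against mean raw Cq for every assay with a value in all samples (grey), the 5 reference genes (black squares) and Il17ra (red). Il17ra, with an SD of 0.17, lies near the lower edge of the cloud, next to the reference genes.

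The 4 assays whose log2 values went most closely with Il17ra over the 28 implants were, of 311 searched, Cd24a (r = 0.61, rho = 0.52), Cxcl5 (r = 0.60, rho = 0.55), Fpr1 (r = 0.59, rho = 0.51) and Ccl11 (r = 0.56, rho = 0.59). Cd24a encodes a surface glycoprotein of granulocytes and B cells, Cxcl5 a neutrophil-attracting chemokine, Fpr1 a formyl peptide receptor of neutrophils and Ccl11 the chemokine eotaxin. Over deviations from the 6 group means r was 0.60, 0.67, 0.57 and 0.71 in that order. Il17f, over its 13 implants, went most closely with the third assay of Rhoa (r = 0.85, rho = 0.73), a small GTPase, the second assay of Bmp6 (r = 0.69, rho = 0.67), a bone morphogenetic protein, and Aox1 (r = 0.65, rho = 0.54), an aldehyde oxidase. These are the highest values of a search and share each sample's normalizing constant, so they are a description and carry no p.

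The rest of the pathway was taken from fixed lists of genes, written with earlier results of these data known. Of the other cytokines of the family, Il17c and Il17d were on the panel, and of the other receptor chains Il17rb was. Il17b, Il25, Il17rc, Il17rd and Il17re were not analysed here. Il17d, a member made mainly outside the immune system, had a value in 27 of 28 implants. At day 14 it spanned -10.70 to -7.37 in tumor-bearing implants with a median of -8.61, and -8.76 to -6.33 in healthy implants with a median of -7.08. The groups overlapped, and the difference of -1.39 ± 0.45 (SE) had an unadjusted p of 0.00513 that did not pass over all assays (limma, adjusted p = 0.144). At day 7 the Il17d difference was -0.87 and at day 21, with 2 tumor-bearing values, 0.19 (limma, adjusted p = 0.997 and 0.995). Il17c differed by -0.38 at day 14 with 4 values in each condition (limma, adjusted p = 0.702). Il17rb, the receptor chain that pairs with IL-17RA for IL-25, had a value in 25 of 28 implants and differed by -0.05 at day 14 (limma, adjusted p = 0.983).

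Of the signaling list, 0 of 4 genes tested passed at day 14, 0 also before adjustment, and the median difference was 0.01, beside -0.08 over all assays. Cebpb, a transcription factor downstream of the receptor, had a difference of 1.10 (limma, adjusted p = 0.688), and Nfkb1, an NF-kappaB subunit, had -0.21 (limma, adjusted p = 0.846). Of the genes that induce IL-17, 0 of 10 tested passed in either direction, over 15 assays with a median of -0.18, of which 1 had an unadjusted p under 0.05. The Il23a assays, which read the p19 subunit of IL-23, did not match: the second gave -1.32 (limma, adjusted p = 0.227) and the first -0.03. Il12b, the p40 subunit shared by IL-12 and IL-23, had -0.50 (limma, adjusted p = 0.654). Of the genes of IL-17 producing lymphocytes, 0 of 2 passed, 0 also before adjustment: Ccr6, a homing receptor of Th17 cells, had -0.84 (limma, adjusted p = 0.514) and Cd4 had -0.21 (limma, adjusted p = 0.802).

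Of 15 target genes tested at day 14, 2 rose and 0 fell, beside 1.70% of all assays that rose and 0.680% that fell. The median over the 22 target assays was 0.16. Both that rose were calprotectin subunits. S100a9 averaged 0.23 in tumor-bearing and -1.85 in healthy implants, a difference of 2.12 ± 0.38 (SE; limma, adjusted p = 0.00210). S100a8 rose by 2.17 ± 0.50 (SE) in its first assay and 1.85 ± 0.46 (SE) in its second (limma, adjusted p = 0.0164 and 0.0283). The assays of the neutrophil chemokine Cxcl1 had -0.02 and -0.30 (limma, adjusted p = 0.983 and 0.7). Ccl20, the ligand of CCR6, had 0.98 (limma, adjusted p = 0.520). The lowest target values were those of Ppbp at -2.23 and Ptgs2 at -2.12 (limma, adjusted p = 0.549 and 0.535). The assays of Csf2, which encodes GM-CSF, had opposite signs at 0.21 and -0.51 (limma, adjusted p = 0.862 and 0.742), as did those of Csf3, which encodes G-CSF, at 0.99 and -0.90 (limma, adjusted p = 0.614 and 0.616).

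**Figure D5:**
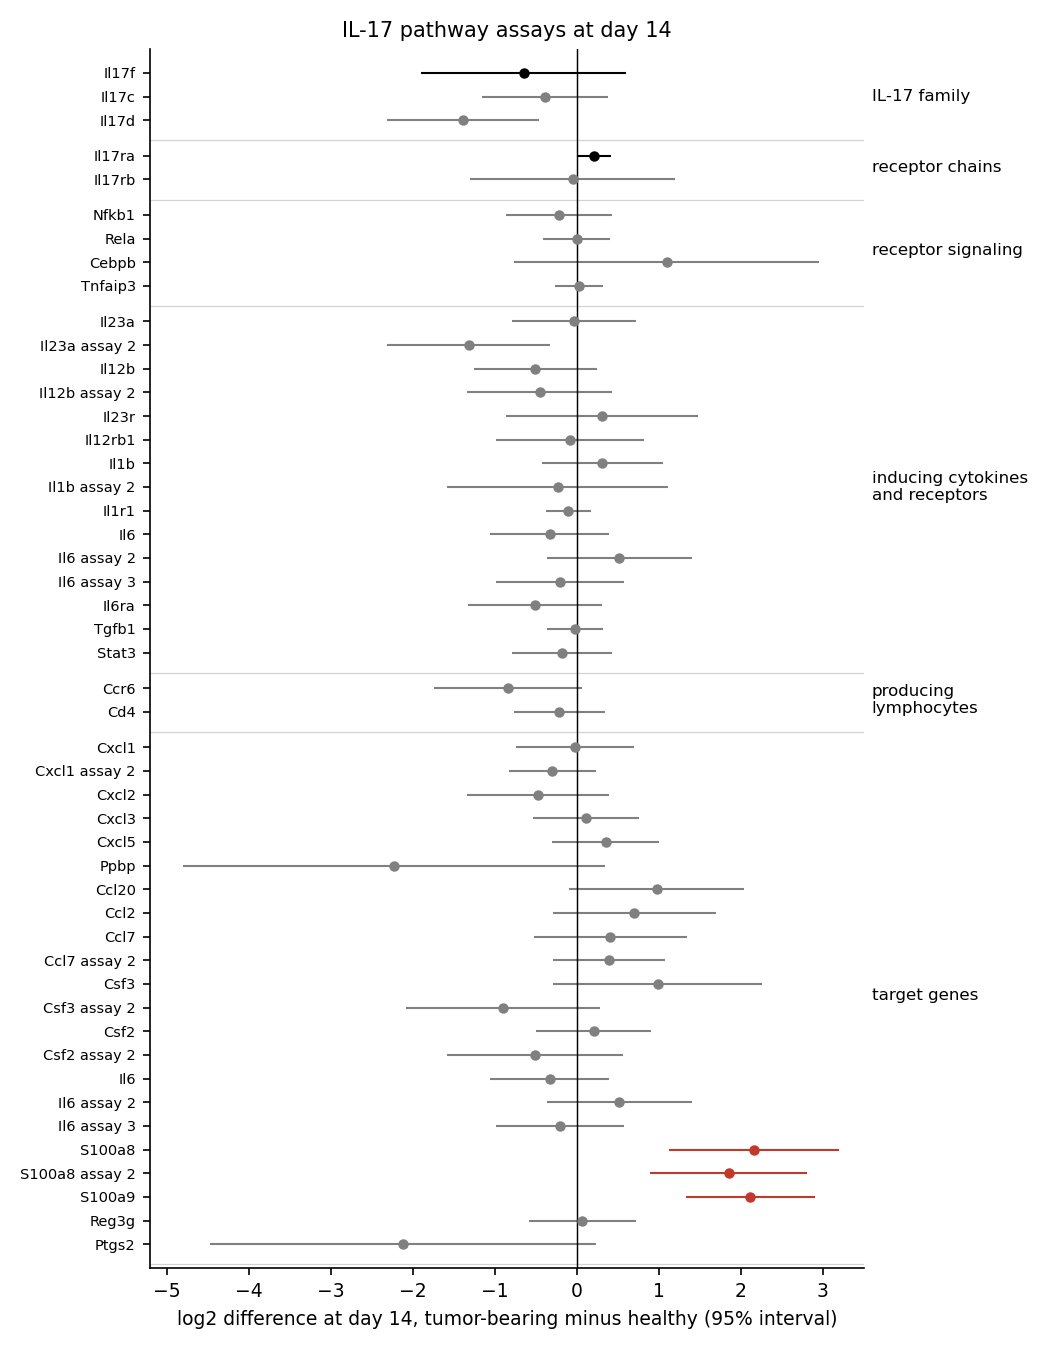
Log2 difference at day 14, tumor-bearing minus healthy, with its 95% interval for each IL-17 pathway assay tested, grouped by list. Members are black, other assays grey, and red marks an adjusted p under 0.05, reached by S100a9 and both S100a8 assays; Il6 is on the inducing and the target list and is drawn in each.

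S100a8 and S100a9 are also abundant neutrophil genes and stand on the list of neutrophil markers. All 8 measured genes of that list rose at day 14, beside 10 of 588 assays (1.70%) over all, most of them this list's own. Camp and Ltf, proteins of secondary granules, rose by 4.81 ± 0.73 and 2.28 ± 0.59 (SE; limma, adjusted p = 0.000408 and 0.0360). The list was written with earlier results of these data known, so its count is a description only. The summed relative quantity of the list was 1.21 to 9.92 in tumor-bearing and 0.432 to 2.17 in healthy implants at day 14. Its largest terms are the assays of S100a8, which counts with 2, and S100a9, so the sum largely repeats their result. In these sums a missing reaction counts as 0, and 7 of 8 tumor-bearing but 1 of 8 healthy implants had a value for every neutrophil assay. Il17ra is expressed by neutrophils among other cells, and the part of their markers in its day 14 value was not tested. At day 21 the summed level was 8.04 to 14.8 in tumor-bearing and 3.00 to 4.79 in healthy implants, where 4 of the 8 genes rose, beside 1.05% of all assays, and Il17ra differed by -0.02. The 5 T cell markers included 0 that passed at day 14 (2 before adjustment, Icos and Foxp3). All 5 were below 0, with a median of -0.72. Their summed levels were 0.0297 to 0.0540 in tumor-bearing and 0.0304 to 0.0760 in healthy implants. All 5 were also below 0 at days 7 and 21, with medians of -0.54 and -0.73 and 0 passing, also before adjustment. The 4 monocyte and macrophage markers included 0 that passed at day 14, 0 also before adjustment. Their sums were 1.23 to 4.19 in tumor-bearing and 2.44 to 4.57 in healthy implants. Over the implants with a value for all of these markers, 7 in each condition, the sums were 2.98 to 4.19 in tumor-bearing and 2.62 to 4.57 in healthy implants. Krt8, a keratin and the 1 gene of the epithelial list that was measured, had a Cq in 23 of 28 implants and differed by -3.64 at day 14 (limma, adjusted p = 0.184). The 7 genes on the stromal list were not analysed here.

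At day 21, 0 of 10 inducing genes passed and 13 of their 15 assays were below 0, with a median of -0.58 beside -0.0013 over all assays. Before adjustment 4 of the 15 had a p under 0.05, beside 52 of 573 assays over all (limma). These 4 were both Il12b assays, the second Il23a assay and Tgfb1. The second assay of Il12b had the value -1.88 (limma, adjusted p = 0.254). Of 15 target genes 0 passed, and 17 of their 22 assays were below 0, with a median of -0.44. Before adjustment 4 of the 22 had a p under 0.05 (limma). Above 0 were S100a9 at 1.70 (limma, adjusted p = 0.263) and the S100a8 assays at 1.76 and 1.61. Below 0 was Cxcl2 at -1.86, with 2 tumor-bearing values (limma, adjusted p = 0.298). At day 7, 0 of 10 inducing and 0 of 15 target genes passed, 0 also before adjustment, with medians of -0.06 and 0.08. Averaged over days 2 of 15 target genes rose, beside 1.79% of all assays, S100a9 by 1.42 and S100a8 by 1.46 in its first assay (limma, adjusted p = 0.00683 and 0.0439). The second assay of S100a8 had 1.31 and did not pass (limma, adjusted p = 0.0649). Of the 21 target assays in that mean, 15 were below 0, with a median of -0.12 beside -0.05 over all assays. Among them Cxcl2 had -0.75 (limma, unadjusted p = 0.0345, adjusted p = 0.448). In the same mean 0 inducing genes passed (3 of 15 assays before adjustment, beside 50 of 559 over all).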

How the data were processed

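RT-qPCR was run on TaqMan OpenArray Mouse Inflammation panels, per the labels' protocols, with samples staggered over panels. The authors' deposited tables hold raw Cq values (cycles), normalized values and fold changes. The normalized values are linear ratios, not log values. Their log2 equals a per-sample constant minus Cq, and that constant matches the mean Cq of 5 reference genes within 3.0e-05 cycles, worked out from the values. For Il17f and Il17ra the authors' deposited fold changes are ratios of geometric condition means, that is differences of mean log2 values turned back into ratios.

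Log2 values of the 28 samples were fitted with limma 3.58.1 in R 4.3.3: 6 group means, panel as a random block (correlation 0.054), Benjamini-Hochberg adjustment over all assays tested in a contrast and a threshold of 0.05. Assays entered a contrast if 50% or more of some group had a value and each group compared had at least 2; missing reactions were left out of the fits and counted as 0 in summed marker levels. The code was tested on simulated data. Fisher's and exact permutation tests used scipy 1.17.1. Each sample is 1 mouse implant, with 1 reaction per assay. Intervals and limits on shares cover counting error only.

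Members and lists were chosen with earlier results of these data known. Named genes were the members, the rest of the family on the panel, list members past the threshold or else the 2 with the smallest p at day 14, and the assays most alike. Cxcl1, Cxcl2, Csf2, Csf3, Ccl20, Ppbp, Ptgs2, Itgam, Camp, Ltf and the day 21 assays were named after their values were seen. All neutrophil genes passed, and 2 stand for them. Alternatives were other normalizations, detection filters, block settings, a floor for missing reactions, single-day fits and leaving out each sample. The first assay of a gene in the table is called its first.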

Additional observations from a re-analysis of the deposited data

Results flagged for a closer look

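Of 9 groups of IL-17 family and receptor values with 4 to 10 samples, 1 held a sample that stood apart. Il17c in day 14 tumor-bearing replicate 15 had a log2 relative quantity of -11.65, while the other 3 implants with a Cq lay between -12.45 and -12.33. The gap was 0.855 of the whole range (n = 4). Chance marks about 1 in 20 such groups, and no group of Il17f or Il17ra was marked.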

How the results depend on the processing

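The Il17ra difference at day 14 stayed above 0 in all 43 alternative settings, from 0.18 to 0.33, and passed the threshold in 1, raw Cq centred on the sample median (0.33, adjusted p = 0.0361). Leaving out 1 sample gave 0.18 to 0.24, with an adjusted p of 0.258 to 0.546 (limma). The unadjusted p was under 0.05 in 19 of 28 fits. Those without a day 7 or day 21 sample hardly bear on this difference, and all of them stayed under 0.05. Fits without a day 14 sample fell on both sides, from 0.0208 without healthy replicate 9 to 0.0865 without healthy replicate 11. Il17f at day 14 stayed below 0 in 42 settings (-1.01 to -0.21) and never passed. A limit of 32 cycles changed no detection. Several Il17ra differences near 0 changed sign, none past the threshold, and the cause was not tested. At day 7 leaving out 1 sample gave -0.18 to 0.03 (above 0 only without healthy replicate 2, 0.0295). At day 21 it gave -0.11 to 0.11. Centred raw Cq gave 0.0407 at day 21, -0.0335 for tumor-bearing day 21 minus day 7 and -0.0851 for healthy day 21 minus day 7. Without Gapdh in the reference mean, an alternative chosen after seeing the data, the day 21 difference was 0.0119 and healthy day 21 minus day 7 was -0.0580, and without Ywhaz 0.0188 and -0.0025. Leaving out 1 sample gave -0.0501 to 0.19 for the day 21 difference minus that at day 7, -0.17 to 0.0540 for tumor-bearing day 21 minus day 14, -0.0023 to 0.21 for tumor-bearing day 21 minus day 7 and -0.0810 to 0.13 for healthy day 21 minus day 7. The number of assays past the threshold was 14 at day 14, but 3 when only assays with a value in all samples were tested and 6 when that day was fitted alone. At day 21 it was 7, but 4 with panel as a fixed block, 1 with complete assays and 2 to 8 without 1 sample (2 without healthy replicate 23, 3 without 24 or 25). For the mean of days it was 14, but 6 with complete assays and 8 to 15 without 1 sample. No paired analysis was possible because replicate numbers are not shared between groups, other than by panel and day, which is given with the results. Late cycles limit Il17f and Il17a, for which absence, a level too low to measure and a failed or filtered reaction cannot be told apart.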
